A study of Mus musculus with 2 samples.

Results

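The inducible heat shock genes are 9 of the 20299 genes listed in the series. They are Hspa1a, Hspa1b, Hspa8, Hsph1, Hspe1, Hspd1, Hsp90aa1, Dnajb1, and Dnaja1, and the set was selected on the higher level of Hspa1a in Vsir-/- than in WT effector memory–like (EM-like) CD8+ T cells. The values that chose the set are therefore given as a description. All 9 genes were compared across 13 of the 16 clusters that the authors named. For the other clusters, only Hspa1a and Dnajb1 are given.

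Both groups were C57BL/6 mice of 8 weeks with nephrotoxic serum nephritis, in which antibodies against the glomerulus injure the kidney. Mice of both genotypes received 200 µg of sheep IgG in Freund's complete adjuvant into the peritoneum and, 4 days later, sheep nephrotoxic serum into a vein, so neither library is an uninjured control. The serum dose is 2 µl/g per the labels, and the study's methods give another volume. One library came from WT mice and 1 from Vsir-/- mice, which lack the immune checkpoint VISTA in every cell, and how many mice were in each was not given. The kidneys were held in liberase at 0.2 mg/ml for 30 minutes, at a temperature of 37 °C. Afterwards, transcripts were counted by unique molecular identifiers (UMIs) in 5470 WT and 1844 Vsir-/- cells.

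Heat shock proteins are molecular chaperones, which bind unfolded proteins and help them to fold. In the classical heat shock response, the transcription factor HSF1 binds repeats of the sequence nGAAn, called heat shock elements, in front of chaperone genes and raises their transcription within minutes. Heat, oxidants, tissue digestion, and the activation of T cells are all known inducers. Hspa1a and Hspa1b encode the same inducible HSP70 and are among the most inducible of these genes, whereas Hspa8 encodes the constitutive HSC70.

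The sequences in front of the genes are shown because 6 of the 7 members with a listed start share the motif of this pathway. RefSeq promoter windows on GRCm38.p6 were listed for every member except Hspa8 and Hsp90aa1, in 12 windows. The 250 bases before each start were searched for the inverted repeats GAANNTTC and TTCNNGAA, each of which reads the same on both strands, and for triples, in which a further block continues the pair at the same spacing, so that a triple contains both pairs. A pair was present in 7 of the 12 windows and in 12.8% of all 32851 listed windows. A triple was present for Hspe1 and Hspd1 and in 0.466% of all windows. The matches are not independent, because both windows of Hsph1 hold the same match and some members share sequence, as given below. Hspa1a and Hspa1b are given as the 150 bases before the start, and the others as 30 bases around the match. Capitals mark the fixed letters of the repeats.
Hspa1a, chr17:34972157-34972306, minus strand: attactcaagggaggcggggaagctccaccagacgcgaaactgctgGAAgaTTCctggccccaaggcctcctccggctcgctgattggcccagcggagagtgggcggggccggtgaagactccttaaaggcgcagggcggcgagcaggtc
Hspa1b, chr17:34959239-34959388, minus strand: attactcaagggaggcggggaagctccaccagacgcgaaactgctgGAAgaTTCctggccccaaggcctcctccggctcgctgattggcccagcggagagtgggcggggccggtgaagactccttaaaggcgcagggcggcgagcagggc
Hspe1, chr1:55088052-55088081, plus strand: cggtccgTTCtaGAAccTTCcgGAAggccc
Hsph1, chr5:149636352-149636381, minus strand: tgggtagaatctTTCtcGAAggctcgagaa
Dnaja1, chr4:40722332-40722361, plus strand: aaaaagcctctaGAAaaTTCtacgaggctc

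The windows of Hspa1a and Hspa1b were identical at 247 of 250 positions. Hspd1 and Hspe1 start from the same stretch of chromosome 1 in opposite directions, and the run of repeats printed for Hspe1 is also the one found before a start of Hspd1. The windows of Dnajb1 held none of these letters, which concerns these windows only. A match is a description and does not show that a factor bound there.

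Hspa1a and Hspa1b could be counted apart at the ends that the assay reads. In the GENCODE vM21 transcripts, none of the 410 stretches of 91 bases, the length of the RNA read, in the last 500 bases of Hspa1a occurred in Hspa1b, and the reverse was also 0 of 410. Over the whole transcripts, 49.1% of the Hspa1a stretches occurred in Hspa1b. The sum of both genes is therefore given as well.

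The libraries stood apart in ways that touch every comparison. Vsir itself had 4278 UMIs in the WT library and 8 in the Vsir-/- library. The sort is labelled as CD45+ for WT and as all kidney cells for Vsir-/-, although the methods describe a CD45+ sort, and a UMI of Ptprc, which encodes CD45, was present in 94.2% of WT and 73.6% of Vsir-/- cells. Transcripts of 36 kidney tubule genes made up 507 UMIs per 1000000 UMIs (CPM) in the WT library and 10230 CPM in the Vsir-/- library. Among the most abundant of them in Vsir-/- were Gpx3 (1.37 CPM in WT and 1559 CPM in Vsir-/-), Fxyd2 (0.823 and 1185 CPM), Atp1b1 (77.7 and 671 CPM), and Kap (0.366 and 564 CPM). The Y-linked transcript Ddx3y had 1779 and 0 UMIs and Xist had 0 and 16405 UMIs, so that genotype, sex-linked transcripts, and sort cannot be told apart. The methods give all mice as male, which these counts of the Vsir-/- library do not match. The libraries were also counted under different gene names: 195 genes with at least 100 UMIs in WT had none in Vsir-/-, 1011 had the reverse, and 97 of these were pairs of an older and a newer symbol of 1 gene. No member was among them, and no member overlaps another protein-coding gene on its own strand in GENCODE vM21. Median depth was 4726.5 UMIs per WT cell and 6673 UMIs per Vsir-/- cell, and 5 cell barcodes occurred in both libraries.

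With 1 library per genotype, the difference between genotypes has no replicate check and no test was made. Levels are UMIs of a gene summed over the cells of a cluster, in CPM, with an exact Poisson interval. Ratios are log2 of Vsir-/- over WT CPM after 0.5 UMI was added to each sum, with an exact conditional interval. Both intervals are at 95% and cover counting error only. Of 16 clusters, 13 had at least 20 cells in each library and were compared, and "higher" or "lower" in a count means at least 2-fold and covers genes that had 20 or more UMIs there over both libraries.

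In EM-like CD8+ T cells, the inducible HSP70 genes stood far above the other members in their ratio. This cluster held 197 WT and 28 Vsir-/- cells. Hspa1a was at 98.4 CPM in WT (interval, 78.1 to 122; 81 UMIs) and at 1132 CPM in Vsir-/- (interval, 976 to 1306; 188 UMIs), a log2 ratio of 3.52 (interval, 3.14 to 3.92). Hspa1b was at 222 CPM in WT and 1084 CPM in Vsir-/-, a log2 ratio of 2.29 (interval, 1.98 to 2.59). The Poisson intervals of the libraries did not overlap for either gene, from which nothing is read because Hspa1a in this cluster chose the set. The sum of the pair had a log2 ratio of 2.79.

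The partners of HSP70 in the cytosol showed smaller differences in the same cells. Hsp90aa1, the stress-inducible HSP90 that acts on kinases and steroid receptors, was at 686 CPM in WT and 1253 CPM in Vsir-/-, a log2 ratio of 0.87 (interval, 0.63 to 1.10). Dnajb1, an HSP40 that hands substrates to HSP70, was at 162 and 283 CPM, with a log2 ratio of 0.82 (interval, 0.30 to 1.30). For both genes the interval lay above 0 while the ratio stayed under 2-fold. Hsph1, a nucleotide exchange factor of HSP70, was at 104 and 145 CPM, and the interval of its log2 ratio (0.49; −0.25 to 1.14) held 0. Hspa8 was at 1982 and 2584 CPM, a log2 ratio of 0.38 (interval, 0.23 to 0.54). Dnaja1, the other HSP40 of the set, had the opposite direction, at 865 CPM in WT and 693 CPM in Vsir-/- (log2 ratio, −0.32; interval, −0.62 to −0.03).

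The mitochondrial pair did not follow. Hspd1 and Hspe1 encode HSP60 and its lid HSP10, which fold proteins inside mitochondria. Hspe1 was at 346 CPM in WT and 361 CPM in Vsir-/- (log2 ratio, 0.07; interval, −0.36 to 0.47). Hspd1 was at 202 and 151 CPM (log2 ratio, −0.40; interval, −1.09 to 0.19). Neither interval excluded a ratio of 1. Summed over the 9 genes, WT had 4668 CPM and Vsir-/- had 7685 CPM, a log2 ratio of 0.72 (interval, 0.63 to 0.81). In all, 2 of the 9 members were higher and 0 lower, beside 6.03% and 9.98% of all genes in this cluster, from which nothing is read because this contrast chose the set.

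**Figure D1:**
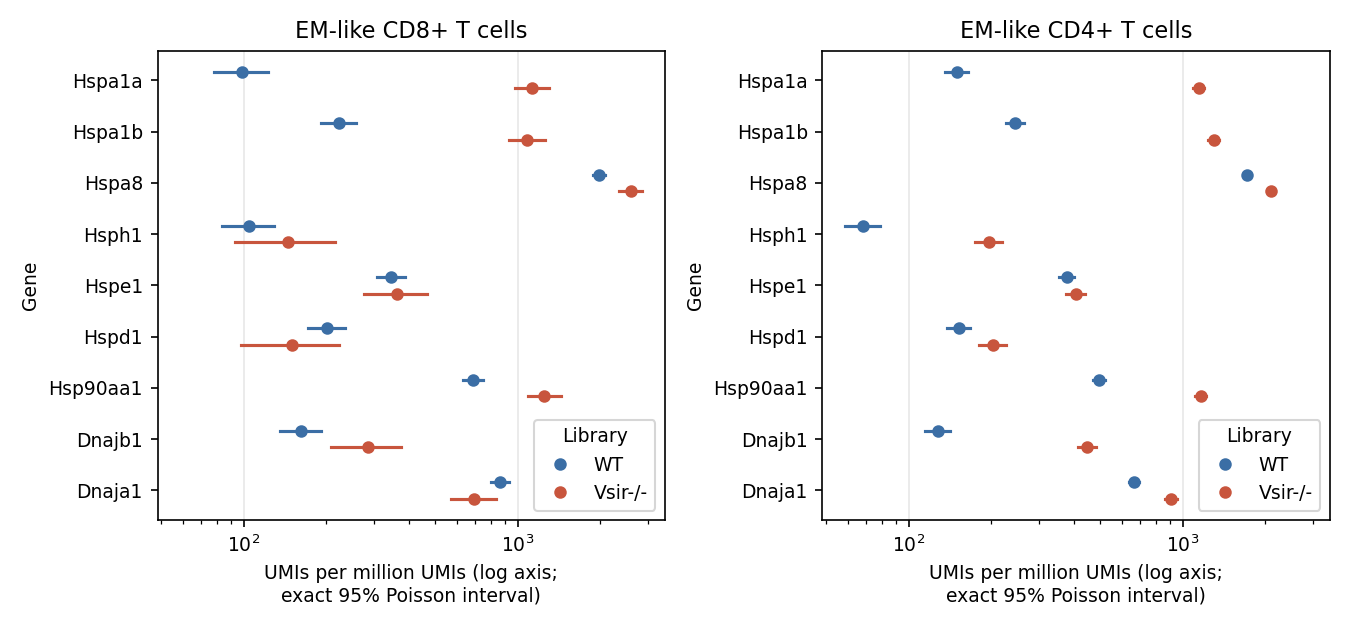
Level of each member in EM-like CD8+ (left) and EM-like CD4+ T cells (right), in UMIs per 1000000 UMIs on a log axis. Points are 1 library each (WT blue, Vsir-/- red) and bars are exact 95% Poisson intervals. Hspa1a and Hspa1b are widely separated in both panels, whereas Hspe1 overlaps in both.

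The Hspa1a UMIs of EM-like CD8+ T cells were unevenly spread over cells. In the Vsir-/- library, 12 of 28 cells had none, the median was 1, and the highest cell had 41. The top 3 cells held 56.4% of the UMIs, and 8 cells had at least 8 UMIs each. In the WT library, 164 of 197 cells had none and the highest cell had 11. Shares of cells with a UMI were 16.8% in WT and 57.1% in Vsir-/-, and after every cell was thinned to 1000 UMIs they were 7.73% (interval, 4.39 to 12.4) and 32.1% (interval, 15.9 to 52.4). Neutrophils, the cluster with the lowest shares, had 9.35% and 12.0% of cells with a UMI at median depths of 3565 and 4097 UMIs, against 3886 and 5236 UMIs here.

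**Figure D2:**
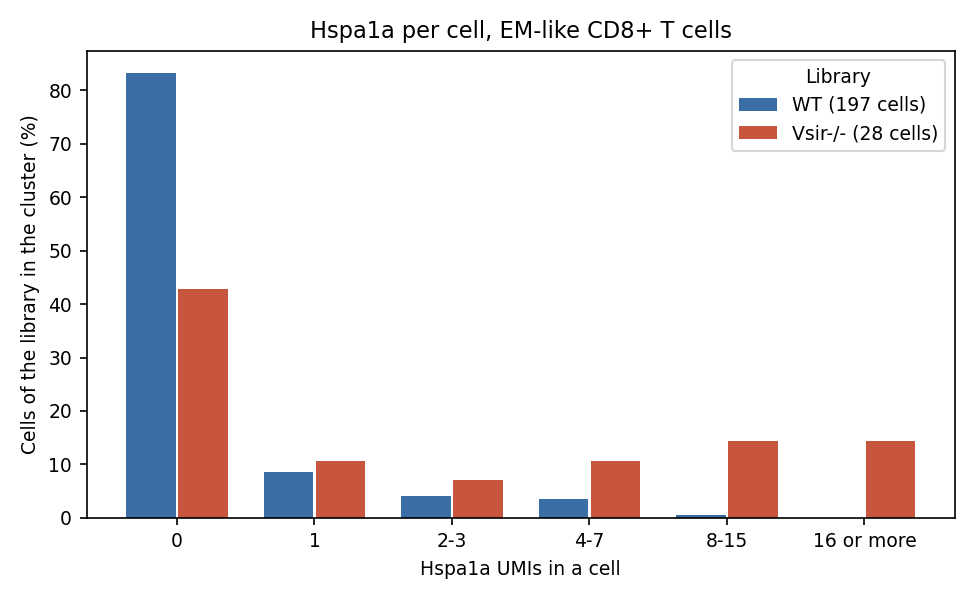
Percent of the cells of each library (WT, 197 cells; Vsir-/-, 28 cells) in the EM-like CD8+ cluster by the number of Hspa1a UMIs in a cell. Cells with 0 UMIs are 83.2% of WT and 42.9% of Vsir-/- cells, and only the Vsir-/- library has cells with 16 or more, which are 14.3% of its cells.

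Cells that carried Hspa1a also carried more of some other members, as a description of 28 and 197 cells that share depth and library. In Vsir-/- EM-like CD8+ T cells, Hspa1b was at 1768 CPM in the 16 cells with Hspa1a and at 287 CPM in the 12 cells without it. Hsp90aa1 was at 1746 and 678 CPM in the same cells, and Hspa8 was at 2955 and 2151 CPM. Hspa1b and Hsp90aa1 were thus higher in the cells with Hspa1a, and Hspa8 was so to a smaller degree. Hsph1 was at 213 and 65.2 CPM, on 19 and 5 UMIs, and Dnajb1 was at 336 and 222 CPM. Hspe1 was at 381 and 339 CPM, Hspd1 at 157 and 143 CPM, and Dnaja1 at 783 and 587 CPM. The Poisson intervals of Hsph1, Dnajb1, Hspe1, Hspd1, and Dnaja1 overlapped between cells with and without Hspa1a. Spearman's rho with Hspa1a over the Vsir-/- cells was 0.748 for Hspa1b, 0.770 for Hsp90aa1, 0.515 for Hspa8, and 0.139 for Dnajb1. In WT cells, rho was 0.431 for Hspa1b but 0.0215 for Hsp90aa1, and Hsp90aa1 was at 677 CPM in cells with Hspa1a and 689 CPM in cells without it.

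The cluster was not uniform in its lineage transcripts. Cells with Cd8a or Cd8b1 and no Cd4, 102 in WT and 15 in Vsir-/-, had 81.6 and 998 CPM of Hspa1a. Cells with none of these transcripts, 90 in WT and 7 in Vsir-/-, had 115 and 2662 CPM. Cells with Cd4 and neither Cd8 gene, 3 in WT and 6 in Vsir-/-, had 258 and 368 CPM. The higher level was therefore also present among cells with Cd8 transcripts. All cells of the cluster had a T cell receptor or CD3 transcript in both libraries. All 5 NK cell genes were lower in Vsir-/-, at 837 CPM in sum against 3683 CPM in WT. The tubule genes summed to 281 and 2650 CPM, with 29 and 4 of 36 at 0, and their part in the Hspa1a level was not tested. Over the Vsir-/- cells, rho between Hspa1a and the tubule sum was −0.0145.

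Among the genes of EM-like CD8+ T cells with at least 100 UMIs and at least 4 per library, Hspa1a ranked 1 of 1428 by ratio and Hspa1b ranked 5. These ranks are a description, because the Hspa1a ratio in this cluster chose the set. Hsp90aa1 ranked 33, Dnajb1 41, Hsph1 140, Hspa8 214, Hspe1 583, Dnaja1 1058, and Hspd1 1141. The members thus ran from the top of the list to its lower part. The other genes of largest ratio were Ly6a, a surface antigen of activated lymphocytes (log2 ratio, 2.92), the cytokine gene Ifng (2.92), the ribosomal gene Rpl13a (2.71), Ndfip1 (2.15), and Nfkbia, the inhibitor of NF-κB (2.14). Rpl13a overlaps another gene on its strand in GENCODE vM21. The genes of smallest ratio were Fcer1g (−3.06), Klra9 (−3.04), Tyrobp (−2.53), Klrk1 (−2.49), and Prf1 (−2.37), which encode receptors, adaptors, and the perforin of NK and cytotoxic cells.

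In EM-like CD4+ T cells, which the rule did not use, the difference took in more of the chaperone set. The cluster held 489 WT and 244 Vsir-/- cells. Hspa1a was at 150 CPM in WT (421 UMIs) and 1146 CPM in Vsir-/- (1808 UMIs), a log2 ratio of 2.93 (interval, 2.78 to 3.09), and Hspa1b was at 245 and 1298 CPM, a log2 ratio of 2.41. Dnajb1 was at 128 and 449 CPM (log2 ratio, 1.81), Hsph1 was at 68.1 and 197 CPM (log2 ratio, 1.53), and Hsp90aa1 was at 496 and 1167 CPM (log2 ratio, 1.23). HSP70, its HSP40 partner, its exchange factor, and HSP90 were thus all more than 2-fold higher. In total, 5 of the 9 members were higher and 0 lower, beside 10.4% and 5.41% of all genes, and the members' median log2 ratio was 1.23 beside 0.000325 for all genes. The 5 include Hspa1a, whose ratio in EM-like CD8+ T cells chose the set, and Hspa1b, which followed it over clusters.

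The remaining members moved little in EM-like CD4+ T cells. Hspa8 was at 1721 CPM in WT and 2104 CPM in Vsir-/- (log2 ratio, 0.29). Dnaja1 was at 665 and 906 CPM (log2 ratio, 0.45), the only compared cluster in which its interval lay above 0. Hspd1 was at 152 and 203 CPM (log2 ratio, 0.41), and Hspe1 was at 378 and 408 CPM (log2 ratio, 0.11; interval, −0.03 to 0.25). An Hspa1a UMI was present in 27.4% of WT and 56.6% of Vsir-/- cells, and the top 25 of 244 Vsir-/- cells held 47.9% of the UMIs. All 9 members were found together in 43 Vsir-/- and 13 WT cells.

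Hspa1a was higher in Vsir-/- at 9 of 13 clusters, and its interval lay above 0 in 12. Other T and NK clusters came next to the EM-like clusters. In γδ T cells (46 WT and 28 Vsir-/- cells), Hspa1a was at 139 and 891 CPM (log2 ratio, 2.67). The non–EM-like CD8+ cluster had 91.1 and 561 CPM (log2 ratio, 2.62), and NK cells had 98.4 and 446 CPM (log2 ratio, 2.18). These were the largest ratios of whole clusters after those of the EM-like clusters. Proliferating cells had 94.0 and 347 CPM (log2 ratio, 1.88). In Vsir-/-, the 70 proliferating cells with a Ptprc UMI were at 542 CPM and the 119 without one were at 224 CPM. Among proliferating cells with a Ptprc UMI, the log2 ratio was 2.52.

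Macrophages and plasmacytoid dendritic cells had higher WT levels and smaller ratios. R1 cells, the resident macrophages of the kidney, had the highest Hspa1a level of both libraries, 800 CPM in WT and 1279 CPM in Vsir-/- (log2 ratio, 0.68; interval, 0.54 to 0.81). The share of R1 cells with an Hspa1a UMI went the other way, 78.4% in WT and 62.4% in Vsir-/-, and was 48.6% and 47.2% after thinning. In Vsir-/-, the 52 R1 cells with no Ptprc UMI had 189 CPM and the 185 cells with one had 1340 CPM. Among R2 cells, the infiltrating macrophages, the M2-like cluster had 369 and 867 CPM (log2 ratio, 1.23) and the other R2 cluster had 296 and 1030 CPM (log2 ratio, 1.80). Plasmacytoid dendritic cells (pDCs) had 336 and 1051 CPM (log2 ratio, 1.64).

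B cells, non–EM-like CD4+ T cells, and neutrophils showed the smallest differences beside R1. B cells had 183 CPM in WT and 362 CPM in Vsir-/- (log2 ratio, 0.99). The non–EM-like CD4+ cluster had 145 and 272 CPM (log2 ratio, 0.90), but of its 349 Vsir-/- cells only 116 had a T cell transcript, and these were at 434 CPM while the other 233 were at 213 CPM. All 895 WT cells of the cluster had a T cell transcript. Neutrophils had the lowest level of both libraries, 37.5 and 48.9 CPM, and their interval held 0 (log2 ratio, 0.39; −0.20 to 0.94).

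**Figure D3:**
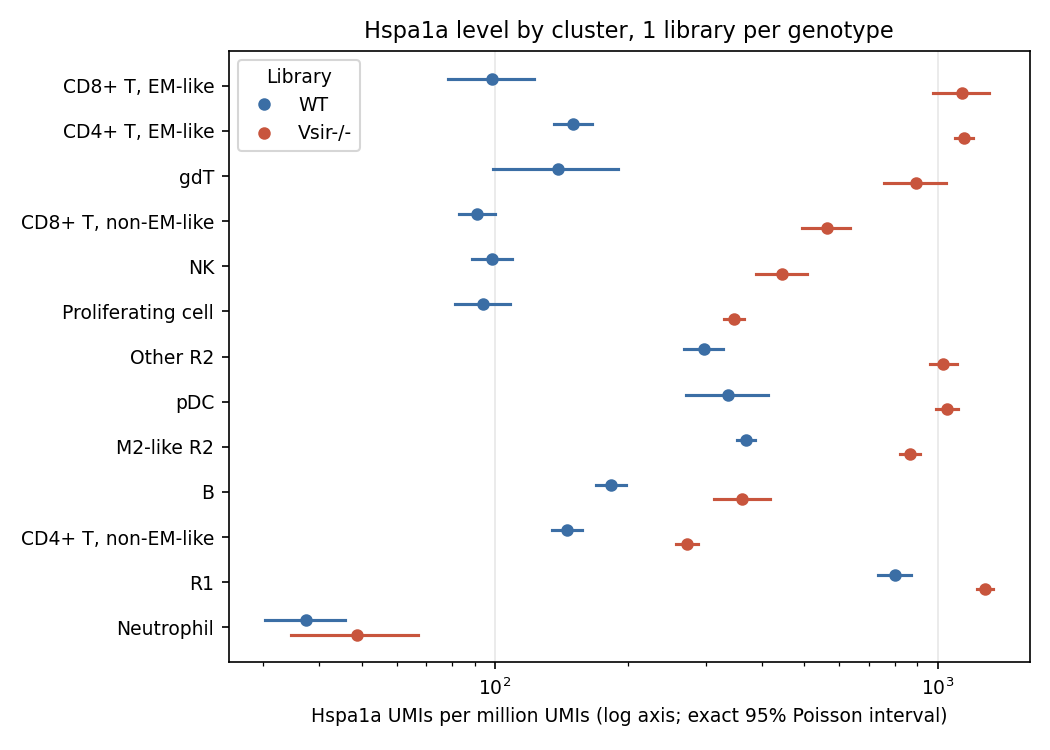
Hspa1a level in the 13 compared clusters in UMIs per 1000000 UMIs on a log axis, ordered by ratio from the top. Points are 1 library each (WT blue, Vsir-/- red) with exact 95% Poisson intervals. The WT points run from 37.5 to 800 and the Vsir-/- points from 48.9 to 1279, and the intervals overlap only in neutrophils.

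The order of the clusters by Hspa1a level was different in the libraries. In WT, R1 was followed by M2-like R2, pDC, and other R2 cells, whose neighbours did not differ beyond counting error, and all T and NK clusters lay at or under 150 CPM. In Vsir-/-, EM-like CD4+ and EM-like CD8+ T cells came directly under R1, followed by pDCs and other R2 cells. From EM-like CD4+ T cells to other R2 cells, no cluster differed from the next beyond counting error. Clusters further apart in the order were not compared. The EM-like CD4+ T cells, which the rule did not use, were thus placed among the macrophage clusters in Vsir-/- and below them in WT. EM-like CD8+ T cells ranked 10 of 13 in WT and 3 in Vsir-/-, from which nothing is read because this contrast chose the set.

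Hspa1b followed Hspa1a over clusters, with a rank correlation of 0.913 over 29 sums of a cluster and library that each held at least 20 cells. It was higher in 6 clusters, which were the EM-like and non–EM-like CD8+, EM-like CD4+, γδ T, NK, and other R2 clusters. Its largest log2 ratio was 3.25 in γδ T cells (153 and 1467 CPM), and in neutrophils it was −0.36 (55.2 and 42.5 CPM). In 12 of 13 clusters the log2 ratio of Hspa1a was above that of Hspa1b. Over whole libraries there were 0.758 UMIs of Hspa1a per UMI of Hspa1b in WT and 1.22 in Vsir-/-, and the WT value was lowest, 0.443, in EM-like CD8+ T cells. Nothing is read from that cluster in these comparisons, because its Hspa1a ratio chose the set. For the sum of both genes, the log2 ratio was 2.63 in EM-like CD4+ T cells, 3.01 in γδ T cells, 2.42 in the non–EM-like CD8+ cluster, 1.90 in NK cells, 1.63 in other R2 cells, 1.27 in pDCs, and 1.11 in proliferating cells. In M2-like R2 cells the sum was under 2-fold (log2 ratio, 0.988), unlike Hspa1a alone. Whether the different gene models of the libraries bear on this was not tested.

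The other members differed by cluster. Besides EM-like CD4+ T cells, Dnajb1 was higher in the non–EM-like CD8+ cluster (120 and 353 CPM; log2 ratio, 1.56) and in NK cells (134 and 300 CPM; log2 ratio, 1.17), and its intervals lay below 0 in 3 clusters, among them neutrophils (69.3 and 45.0 CPM; log2 ratio, −0.61). Hsp90aa1 had intervals above 0 in 10 clusters and below 0 in none, but was past 2-fold in EM-like CD4+ T cells alone. In R1 cells it was at 512 and 996 CPM (log2 ratio, 0.96). The 10 include the non–EM-like CD4+ cluster, where its log2 ratio was −0.36 after centring on the median gene. The share of all genes with such intervals is not given, so these counts are not set against a background. Hspd1 had intervals above 0 in 8 clusters, with its largest log2 ratio, 0.996, in the non–EM-like CD8+ cluster (166 and 330 CPM), just under 2-fold. The 8 include proliferating cells, where those with a Ptprc UMI were at 216 CPM in WT and 220 CPM in Vsir-/-. Hsph1 ran from −0.64 in proliferating cells to 1.53 in EM-like CD4+ T cells. The other 3 genes stayed under 2-fold in every compared cluster. Hspa8 ran from a log2 ratio of −0.74 in proliferating cells to 0.38 in EM-like CD8+ T cells, Hspe1 ran from −0.40 to 0.57, and Dnaja1 ran from −0.46 to 0.45 with intervals below 0 in 6 clusters.

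**Figure D4:**
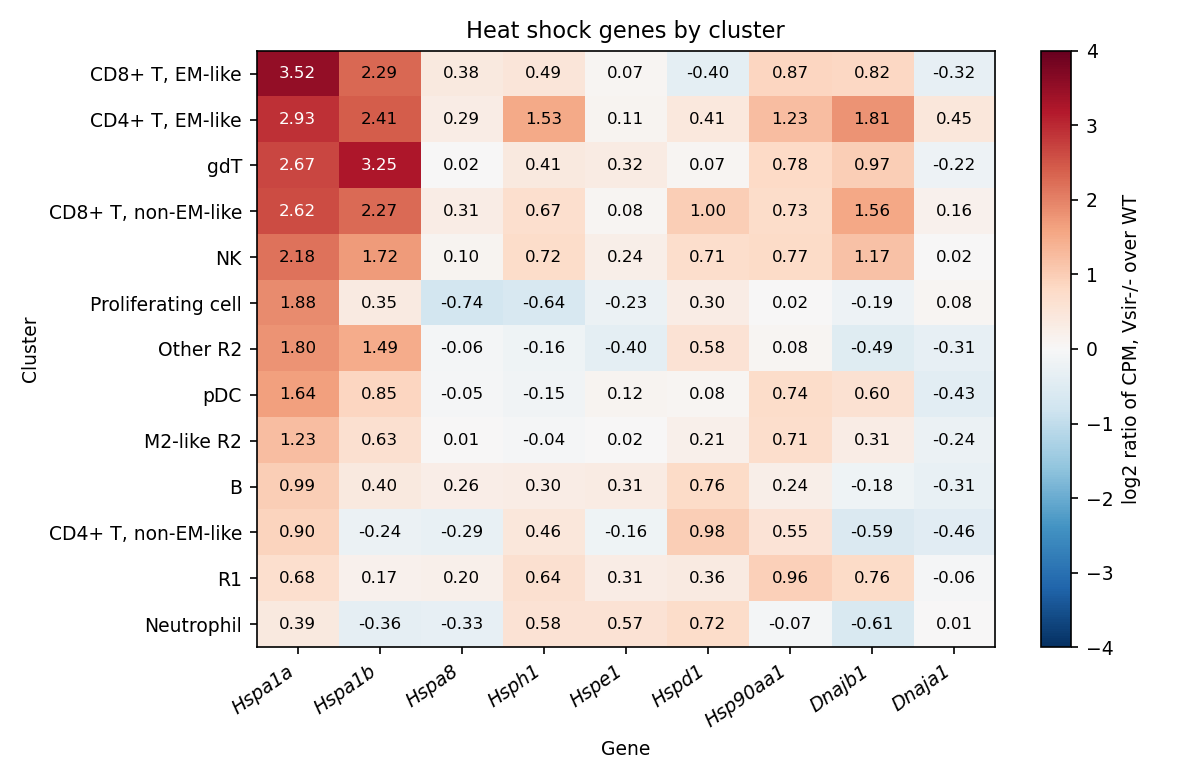
The log2 ratio of CPM, Vsir-/- over WT, of each member (columns) in each of the 13 compared clusters (rows, in the order of the Hspa1a ratio), with the value printed in each cell and red for higher in Vsir-/-. The Hspa1a column is above 0 in every row, and values of 1 or more outside the Hspa1a and Hspa1b columns are those of Dnajb1 for EM-like CD4+ T cells, NK cells, and the non–EM-like CD8+ cluster, and of Hsph1 and Hsp90aa1 for EM-like CD4+ T cells, beside Hspd1 in the non–EM-like CD8+ cluster, which is just under 1.

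Over the 117 pairs of a member and a compared cluster, 20 were higher in Vsir-/- and 0 lower. The 20 were 17.1% of the pairs, beside 17.7% of all pairs of a gene and a cluster. Of all pairs of a gene and a cluster, 9.38% were lower. Without EM-like CD8+ T cells, where the set was chosen, 18 of 108 member pairs were higher (16.7%), beside 18.3% of all genes' pairs. The pooled count was therefore not above the pooled background, in which clusters with more counted genes weigh more, unlike for the members. Of the 19537 higher calls over all compared clusters, 6014 came from the non–EM-like CD4+ cluster and 4593 from proliferating cells. By cluster, the share of all genes that were higher ran from 5.98% to 47.8%, with a median of 10.4%. The pooled shares alone therefore do not place the members. In the non–EM-like CD8+ cluster 3 of 9 members were higher, beside 11.1% of all genes (9.66% lower), and in NK cells 3 were higher, beside 9.86% (7.01% lower). Both clusters had the same genes, Hspa1a, Hspa1b, and Dnajb1. In γδ T cells 2 members were higher, beside 5.98% (6.6% lower), and in other R2 cells 2 were higher, beside 6.71% (9.52% lower), in both cases Hspa1a and Hspa1b. These shares of the members were above the background of their clusters. All of them count Hspa1a, on which the set was chosen, and Hspa1b, which followed it over clusters.

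Hspa1a was the only member that was higher in the M2-like R2 cluster, where 8.11% of all genes were higher and 7.61% lower. The same was so in pDCs, where 11.9% of all genes were higher and 10.1% lower, and in proliferating cells, where 37.5% were higher and 9% lower. A share of 1 in 9 is near these backgrounds or under them. No member was higher in B cells (16.3% of all genes higher, 15.9% lower), where Hspa1a was just under 2-fold and 3 members passed it among cells with a tubule share of at most 0.5%. The count was also 0 in neutrophils (9.99% and 10.6%), R1 cells (13.6% and 8.78%), and the whole non–EM-like CD4+ cluster (47.8% and 10.7%). In that last cluster the median log2 ratio of all genes was 0.912, and in proliferating cells it was 0.512. A Ptprc UMI was present in 30.4% and 37.0% of the Vsir-/- cells of these clusters, against 95.1% and 98.3% of the WT cells. Relative to the median gene, Hspa1a was not higher in the non–EM-like CD4+ cluster taken whole (−0.01). Of the 349 Vsir-/- cells there, 116 had a T cell transcript, so this value is not one of T cells alone. With that transcript required, Hspa1a was at 145 CPM in WT and 434 CPM in Vsir-/-, levels not centred on the median gene. Under that requirement 1 member was higher, beside 35.3% of all genes.

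Genes outside the set were compared by lists of known chaperones. One list held chaperones and co-chaperones, mostly of the cytosol, among them partners of HSP70 and HSP90. In EM-like CD8+ T cells, none of the 24 with enough UMIs (of 36) was higher and 3 were lower, beside 6.03% and 9.98% of all genes. Counts this small are near those shares. The lower genes were Fkbp4 (113 and 48.2 CPM), Ptges3 (170 and 72.3 CPM), and Ahsa2 (55.9 and 12.0 CPM), all known to act with HSP90. They rested on 8, 12, and 2 UMIs in Vsir-/-. The median of the list was −0.58 beside −0.02 for all genes. The list therefore did not show the difference seen for HSP70 itself.

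In EM-like CD4+ T cells, 4 of 33 genes of that list were higher and none lower, beside 10.4% and 5.41% of all genes. The count of higher genes is near that share, so nothing is read from it about the list. Bag3, an exchange factor that is itself a heat shock gene, was at 4.64 and 18.4 CPM, and Bag2 was at 1.78 and 12.7 CPM. The small heat shock genes Hspb1 and Cryab were at 1.43 and 73.5 CPM and at 0 and 43.7 CPM, in a cluster whose tubule genes summed to 319 and 5027 CPM. Hsf1, which encodes the main factor of the response, had 36.4 and 30.1 CPM among EM-like CD8+ and 28.5 and 31.7 CPM among EM-like CD4+ T cells, with intervals that held 0.

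Chaperones of other compartments mostly did not pass 2-fold in EM-like CD8+ T cells, where 6.03% of all genes were higher and 9.98% lower. Of the chaperonin TRiC and prefoldin, which fold actin and tubulin, 1 of 14 genes was higher and 1 lower. The higher gene was Cct6a, which had 0 UMIs in the whole WT library and 2464 in the Vsir-/- library, so that no fold is given. The lower gene was Vbp1 (77.7 and 30.1 CPM, the latter on 5 UMIs). Of the mitochondrial chaperones 1 of 5 was higher, Clpp (27.9 and 60.2 CPM), and of the endoplasmic reticulum chaperones 1 of 17 was lower, Pdia4 (81.4 and 36.1 CPM), both with intervals that held 0. None of the 6 ubiquitin and oxidative stress genes with enough UMIs passed 2-fold, and Ubb was at 2889 and 2837 CPM.

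Endoplasmic reticulum chaperones had another pattern in the B and the non–EM-like CD4+ clusters, where no member was higher. Of 18 genes, 12 were higher in B cells, beside 16.3% of all genes, with a median log2 ratio of 1.19 beside −0.04 for all genes. In the non–EM-like CD4+ cluster 13 were higher, beside 47.8% of all genes, with a median of 1.24 beside 0.912. In these clusters the tubule genes summed to 506 and 8837 CPM and to 337 and 21957 CPM. All 5 B cell genes were lower in the B cluster, at 8725 and 3206 CPM in sum, and a Ptprc UMI was present in 86.1% of WT and 56.8% of Vsir-/- cells there. The part of other cells in these values was not tested. Hspa5 and Hsp90b1, the HSP70 and HSP90 of the endoplasmic reticulum, were among the 12 genes of B cells. In EM-like CD4+ T cells none of the 18 was higher or lower, beside 10.4% and 5.41% of all genes.

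Immediate early genes, a list of 29 that is known to rise when tissue is dissociated, were often higher in several T and NK clusters. In EM-like CD4+ T cells 13 of 29 were higher and none lower, and they summed to 7759 CPM among WT and 14997 CPM among Vsir-/- cells. Fos was at 377 and 1204 CPM, Jun at 499 and 1551 CPM, and Atf3, which is a stress gene, at 3.92 and 121 CPM. Among EM-like CD8+ T cells 6 of 24 were higher (Dusp1, Dusp2, Nr4a1, Socs3, Nfkbia, and Gadd45b) and Egr1 was lower, with sums of 8796 and 11823 CPM. The non–EM-like CD8+ cluster had 13 of 27 higher, and γδ T cells had 11 of 25. NK cells had 9 of 29 higher. Of all genes, 10.4% were higher in EM-like CD4+ and 6.03% in EM-like CD8+ T cells. The share was 11.1% in the non–EM-like CD8+ cluster, 5.98% in γδ T cells, and 9.86% in NK cells. Proliferating cells had 11 of 29 higher and 1 lower, near the 37.5% of all genes that were higher there. Counts of the list are not given for other R2 cells and pDCs, whose Hspa1a log2 ratios were 1.80 and 1.64. The list is therefore not shown to follow Hspa1a over clusters.

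For the clusters with small Hspa1a ratios, the counts of that list are given beside the shares of all genes. In neutrophils none of 29 was higher and 5 were lower (22149 and 17149 CPM), beside 9.99% and 10.6% of all genes. In R1 cells 3 were higher and 2 lower, beside 13.6% and 8.78%. The non–EM-like CD4+ cluster had 10 higher and 3 lower, beside 47.8% and 10.7%. B cells had 6 higher and 1 lower, beside 16.3% and 15.9%. M2-like R2 cells, with an Hspa1a log2 ratio of 1.23, had 3 of 29 higher, beside 8.11% of all genes, and sums of 17296 and 17565 CPM. In each of these clusters the count of higher genes was near the share of all genes or under it. Over the 28 Vsir-/- EM-like CD8+ T cells, rho between Hspa1a and the sum of the list was 0.666, and over the WT cells it was 0.0550. The part of dissociation in the level of the members was not tested.

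The genes outside the set whose levels were most like Hspa1a over the 29 sums were Gng10 (rank correlation, 0.801), Ccl7 (0.767), Cds1 (0.746), Nars (0.739), and Isoc1 (0.716), among 11466 genes with at least 20 UMIs in each library. Ccl7, Cds1, and Isoc1 had only 1, 2, and 9 UMIs in EM-like CD8+ T cells over both libraries. Their highest levels in a WT cluster were 5.76, 14.4, and 30.5 CPM. Gng10 shares its locus with another protein-coding gene on the same strand in GENCODE vM21 and had 75 UMIs in the whole WT library against 2145 in Vsir-/-. Hsp90aa1, at 0.633, Hspa8, at 0.543, and Dnajb1, at 0.440, were less like Hspa1a, and Dnaja1, at −0.0133, was the least like it of the members. The sums share libraries and depth, and these values are a description.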

How the data were processed

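Kidney cells of 1 WT and 1 Vsir-/- library were counted by the authors with Cell Ranger 3.1.0 and handled in R 4.0.3 with Seurat 3.2.3, per the labels, with the build given as mm9. The deposited values are raw UMI counts per gene and cell, with cluster names, library, UMI and gene counts per cell, and the percent of mitochondrial UMIs, which the authors limited to 10. Removal of doublets is not given in the sources used here. Libraries were taken from the labels and cell types from the authors' clusters. The members and lists were chosen with earlier results of these data known.

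UMIs were summed by cluster and library and divided by all UMIs of the same cells (CPM). Because each genotype has 1 library, p-values were not computed. Log2 ratios used 0.5 added UMI, intervals were exact Poisson and Clopper-Pearson at 95%, and the ratio code was tested on simulated data. Depth was 32799550 UMIs in WT and 18601189 in Vsir-/-. Thinning to 1000 UMIs per cell left out 167 WT and 78 Vsir-/- cells. Named genes were every member, list genes past 2-fold in EM-like CD8+ T cells, the 5 most like Hspa1a by rank correlation of log2(CPM + 10), the 5 of largest and smallest ratio, the 5 most abundant tubule genes, of which 1 is not reported here, and Vsir. Other list genes, sex-linked genes, Cct6a, Gng10, and genes of other clusters were named after their values were seen. Alternatives changed the cells kept, depth, denominator, weighting, pseudocount, filter, and fold. Python 3.11.15, numpy 2.4.6, scipy 1.17.1, pandas 2.3.3, and matplotlib 3.10.9 were used. Promoter windows came from RefSeq and transcripts from GENCODE vM21, both on GRCm38, and no coordinate was moved between builds.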

Additional observations from a re-analysis of the deposited data

Results flagged for a closer look

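Clusters left out of the comparison also held counts of the members above the 3 counts that a count of 0 allows. Innate lymphoid cells of type 2 (79 WT and 19 Vsir-/- cells) had 54.5 CPM of Hspa1a in WT and 509 CPM in Vsir-/-, and 134 and 193 CPM of Dnajb1. WT NKT cells (94 cells, none in Vsir-/-) had 139 CPM of Hspa1a and 121 CPM of Dnajb1. WT basophils (25 cells, 2 in Vsir-/-) had 206 CPM of Hspa1a and 1018 CPM of Dnajb1. No comparison was made, because the Vsir-/- cells were under 20.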

How the results depend on the processing

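No paired analysis was possible because each genotype has 1 library. No log2 ratio of 2-fold or more changed direction under any alternative. In EM-like CD8+ T cells, the Hspa1a log2 ratio of 3.52 was 4.00 as a mean over cells and 2.79 for Hspa1a and Hspa1b summed. The 9 members' ratio of 0.72 was 1.09 when cells were thinned and 0.86 as a mean over cells. In place of 2, 4 members were higher when thinned, beside 8.03% of all genes, and 4 at 1.5-fold, beside 14.5%. Of the 117 pairs of member and cluster, 44 in place of 20 were higher at 1.5-fold. At that fold, the share of all genes that were higher ran from 14.4% in other R2 cells to 57.9% in the non–EM-like CD4+ cluster. In place of 0, the pairs lower were 1 with a tubule share of at most 0.5%, 1 with mitochondrial, ribosomal, and tubule genes out of the denominator, 7 after centring on the median gene, and 4 at 1.5-fold. The cause of these shifts was not tested. The Hspa1a ratio in non–EM-like CD4+ T cells ranged from −0.01 after centring to 1.60 in cells with a Ptprc UMI, in B cells from 0.32 when thinned to 1.75 with a tubule share of at most 0.5%, and in R1 cells from 0.24 when thinned to 0.73. In proliferating cells the Hspa1a ratio ranged from 1.11 without the top 5% of cells to 2.52 in cells with a Ptprc UMI. In B cells, 0 members were higher, against 3 with a tubule share of at most 0.5% and 2 without the top 5% of cells. The alternatives with Ptprc cells and with a denominator of genes counted in both libraries were chosen after seeing the data. The 28 Vsir-/- EM-like CD8+ T cells limit the precision of that cluster, and variation between mice was not measured.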
